A study of Homo sapiens with 14 samples.

Results

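The comparison was between day 11 cultures given 7.5 µM of CHIR99021 (CHIR) and day 11 cultures given 0.7 µM, each with 2 RNA-seq libraries numbered 1 and 2. These are 4 of the 14 libraries of the series. All cultures derived from the established human embryonic stem cell line H9 (WA-09) and were being turned into midbrain dopamine neuron precursors. Per the labels, every culture began in 0.7 µM CHIR with SHH C25II, LDN, SB431542 and the Rock inhibitor Y-27632. The labelled dose, 7.5 or 0.7 µM, applied from day 4 until day 10, or to day 9 by the series text. LDN, SB and SHH were removed at day 7, and at day 10 all cultures moved to a medium with BDNF, ascorbic acid, GDNF, TGFβ3, dibutyryl cAMP and 3 µM CHIR. The 0.7 µM cultures were therefore not free of CHIR, and both groups shared the last 3 µM step. All libraries come from 1 cell line, and nothing in the labels says that the replicates were separate differentiations, so the p-values rest on the spread of these libraries alone, which may be technical.

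CHIR blocks the kinase GSK3, which otherwise marks β-catenin for destruction. Stabilised β-catenin joins TCF and LEF proteins on DNA and switches on WNT target genes, and in the early neural tube a rising WNT level turns forebrain fates into midbrain and hindbrain ones. GSK3 also acts on proteins of growth, metabolism and the cell cycle, so a GSK3 inhibitor can reach beyond WNT targets.

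Gene counts came to 33668375 and 32078152 in the 7.5 µM libraries and to 20524827 and 44758969 in the 0.7 µM libraries. The labels call the cells neural progenitors. Of 21 tested progenitor and radial glia genes 3 were called higher at 7.5 µM (CDH2, TNC and GLI3) and 4 lower (PAX6, FABP7, SOX9 and MSI1), with 6, 8, 2 and 1 lower when 7.5 µM replicate 1, 7.5 µM replicate 2, 0.7 µM replicate 1 and 0.7 µM replicate 2 were left out in turn. SOX2 had 188 and 195 CPM (read counts scaled to library size) at 7.5 µM against 198 and 431 CPM at 0.7 µM, and VIM had 4900 and 4590 CPM against 4960 and 4980 CPM. FOXA2, a floor plate factor, had 89.2 and 71.2 CPM at 7.5 µM against 210 and 70.4 CPM at 0.7 µM. Replicate 1 libraries differed from replicate 2 libraries in all 4 doses of day 11, and the 7.5 µM replicate 1 library shared this difference least. On the first principal component, with 56.8% of the variance, it lay at -1.83, while replicate 1 of the other doses lay between -102 and -92.5 and all replicate 2 libraries between 65.6 and 81.4. The test used all 8 day 11 libraries and blocked on replicate number; without that block edgeR called 0 genes at an adjusted p under 0.05, with 1641 at an unadjusted p under 0.05.

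Of 18709 genes tested, 1967 (10.5%) were called at an adjusted p under 0.05 in edgeR's quasi-likelihood test, 1056 higher at 7.5 µM (5.64%) and 911 lower (4.87%). The split was 971 higher and 1044 lower with DESeq2's size factors in the same fit, and 1211 higher and 594 lower when libraries were scaled by their totals alone, a scaling that shifted the median log2 fold change of all genes to 0.24 from 0.07. At 4-fold or more, 413 genes were higher and 345 lower. The 2 libraries of each dose did not overlap in 1832 of the called genes, and they did not overlap in 36.4% of all tested genes. The direction was the same in both replicate pairs for 1966 of the 1967 called genes. The block on replicate number favours such genes, so this count is no separate support for the calls.

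Each library was also left out in turn, and the calls depended on which one. Without 7.5 µM replicate 1, 5.13% of genes were called higher and 6.24% lower, and without 7.5 µM replicate 2 the shares were 15.7% and 14.3%. Without 0.7 µM replicate 1 they fell to 1.74% higher and 1.85% lower, and without 0.7 µM replicate 2 to 2.02% and 2.03%. For the lists below whose counts moved most, counts with 1 library left out are also given. Their order is 7.5 µM replicates 1 and 2, then 0.7 µM replicates 1 and 2 (the leave-out order). Each list count is to be read against the share of all genes in the same fit. For the full fit these shares were 5.64% higher and 4.87% lower. A gene is called stable below if it passed in the full fit and in all 4 of these fits with 1 sign. There were 191 stable genes higher at 7.5 µM (1.02%) and 157 lower (0.839%), and 320 of the 348 code for proteins.

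**Figure D1:**
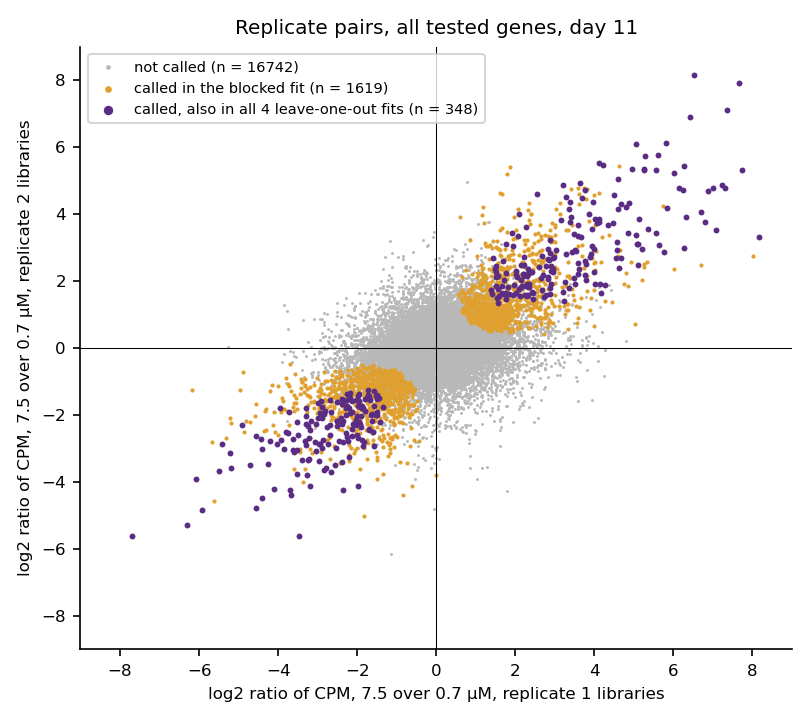
Each point is 1 of 18709 genes, with the log2 ratio of CPM at 7.5 over 0.7 µM in the replicate 1 libraries on the horizontal axis and in the replicate 2 libraries on the vertical axis. Of the 1967 called genes, 1966 lie in the upper right or lower left. Most of the 348 stable ones (dark) lie away from 0 in both pairs. The way genes were called favours both.

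The 4 marker genes of the contrast set its scale. SP5, a WNT target factor, had 134 and 101 CPM at 7.5 µM against 0.777 and 3.62 CPM at 0.7 µM, and EN1, a midbrain and hindbrain factor, had 113 and 84.6 CPM against 3.35 and 8.01 CPM. FGFR3, a receptor for FGFs, had 3.46 and 3.72 CPM at 7.5 µM against 75.2 and 84.1 CPM at 0.7 µM. NKX2-1, a forebrain and hypothalamic factor, had 4 counts over the 7.5 µM libraries and 665 over the 0.7 µM libraries, or 0 and 0.106 CPM against 13.4 and 8.44 CPM. None of the 4 overlapped between doses. FGFR3 had the tightest estimate, a log2 fold change of -4.47 ± 0.32 (SE), from -4.60 to -4.36 with any 1 library left out. SP5 stood at 5.65 ± 0.59, 4.78 without 0.7 µM replicate 1 and 7.44 without 0.7 µM replicate 2, and EN1 at 3.95 ± 0.58, 3.10 and 5.45 without the same libraries. Adjusted p-values were 0.000789 for SP5, 0.00351 for EN1, 0.000264 for FGFR3 and 0.000663 for NKX2-1.

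The largest stable rises were in genes close to silent at 0.7 µM. CDX2, a caudal homeobox factor of the early embryo, had 737 counts over the 7.5 µM libraries and 0 over the 0.7 µM libraries, at least 218-fold higher by a floor of 3 counts over the group. T (Brachyury), a factor of the primitive streak and mesoderm, had 1080 counts at 7.5 µM and 1 at 0.7 µM, a ratio of 958 with a 95% counting interval of 172 to 37900. ZIC1 had 72.4 and 31.7 CPM at 7.5 µM against 0.291 and 0.0651 CPM at 0.7 µM, and its neighbour ZIC4, also a dorsal neural tube factor, had 12.6 and 8.22 CPM against 0.194 and 0.0868 CPM. TAL2, a factor of midbrain GABA neurons in mice, had 8.48 and 10.3 CPM against 0.194 and 0.0868 CPM. CDX2 and T belong to a mesoderm and caudal epiblast list of 16, of which 4 were higher (T, CDX2, EOMES and WNT3A) and 1 lower. The lower one was HES7, an oscillating repressor of somite formation, at 1.57 and 1.17 CPM against 8.3 and 23.2 CPM; EOMES and WNT3A were at about 1 CPM or less and lost their calls without 0.7 µM replicate 2. In bulk libraries a change in the number of cells of a type and a change in RNA per cell cannot be told apart.

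The stable falls of largest fold change included these genes. PAX6, a forebrain factor, had 0.186 and 0.585 CPM at 7.5 µM against 11.2 and 8.18 CPM at 0.7 µM. DCC, the netrin receptor of growing axons, had 0.559 and 3.19 CPM at 7.5 µM against 37.5 and 94.2 CPM at 0.7 µM. ADAM33, a membrane protease, had 0.133 and 0.319 CPM at 7.5 µM against 7.28 and 3.34 CPM at 0.7 µM. CTD-2545M3.8 had 0.0532 and 0.0798 CPM at 7.5 µM against 9.32 and 5.62 CPM at 0.7 µM, but EMC10 on the opposite strand covers 100% of its exonic length, and counts without known strand cannot tell the pair apart.

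**Figure D2:**
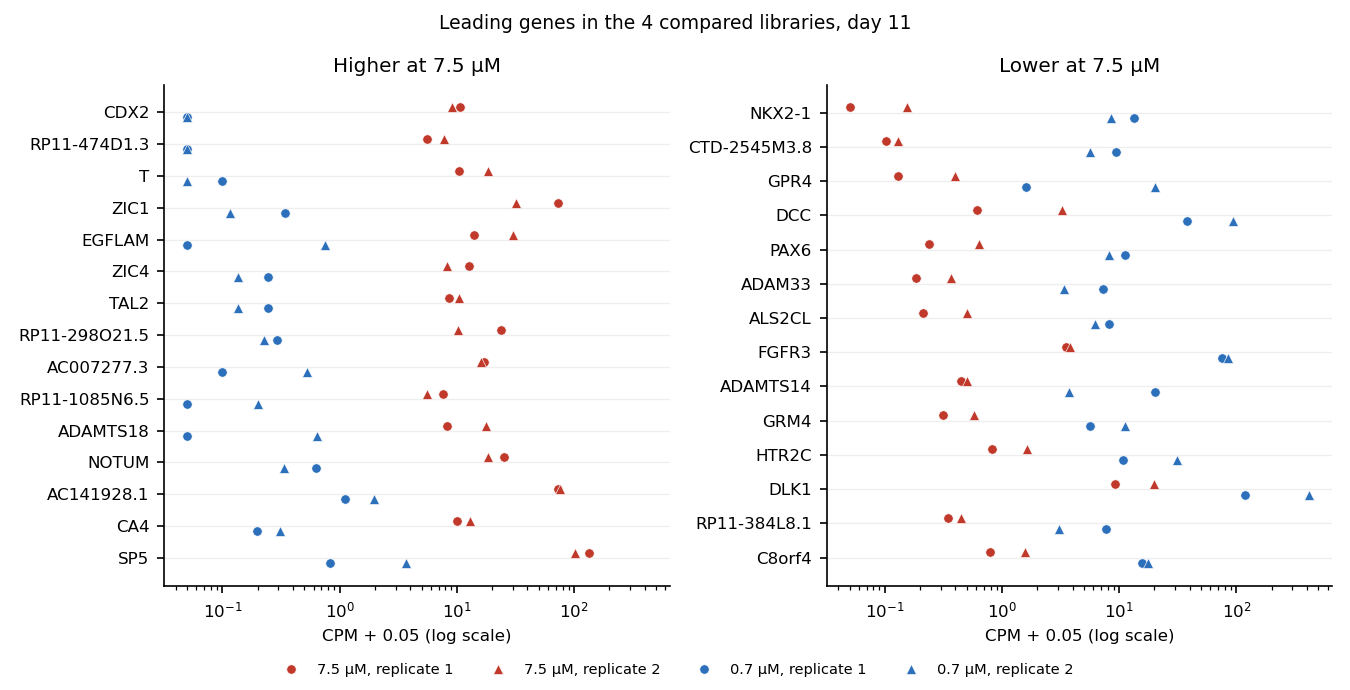
Level of 15 higher (left) and 14 lower (right) stable genes of largest fold change, as CPM + 0.05 on a log scale, in the 2 libraries of 7.5 µM (red) and the 2 of 0.7 µM (blue); circles are replicate 1 and triangles replicate 2. In no gene do the doses overlap, and SP5 stands at 134 and 101 CPM in the 7.5 µM libraries.

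Among genes with the largest difference in CPM, adhesion and matrix genes stood beside WNT feedback genes. TMEM2, a cell surface hyaluronidase, had 505 and 753 CPM at 7.5 µM against 54.9 and 236 CPM at 0.7 µM, and the secreted neuronal protein NELL2 had 694 and 679 CPM against 101 and 226 CPM. FREM2, of the basement membrane, had 203 and 457 CPM at 7.5 µM against 14.7 and 79.6 CPM at 0.7 µM. On the lower side MIAT, a long noncoding RNA, had 161 and 462 CPM at 7.5 µM against 524 and 2480 CPM at 0.7 µM. LRP2, an endocytic receptor that binds SHH among other ligands, had 42.4 and 56.2 CPM against 306 and 703 CPM, a log2 fold change of -3.25 ± 0.28.

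Most genes of cell division rose. Of 63 tested members of a mitosis list (spindle, kinetochore, condensin and cytokinesis genes), 46 were called higher and 0 lower, 73.0% against the 5.64% of all genes. Their median log2 fold change was 1.25, against 0.07 for all genes, and the medians of the replicate pairs were 1.54 and 1.05. Of the 63, 62 had a positive fold change and 9 were stable. Summed over the list, the level was 6175 and 6510 CPM at 7.5 µM against 2527 and 3325 CPM at 0.7 µM. The 3 and 5 µM libraries lay between 2335 and 3164 CPM. In leave-out order 47, 49, 10 and 33 members were higher, so most calls were lost without 0.7 µM replicate 1.

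BUB1B, a kinase-like checkpoint protein of the kinetochore, had 171 and 183 CPM at 7.5 µM against 35.2 and 50.4 CPM at 0.7 µM. MKI67, which coats mitotic chromosomes and marks cycling cells, had 247 and 333 CPM against 72.2 and 107 CPM. The spindle pole gene ASPM had 58.3 and 115 CPM at 7.5 µM against 12.2 and 38.2 CPM at 0.7 µM, the kinetochore scaffold CASC5 40.4 and 74.8 CPM against 8.21 and 25.3 CPM, and the condensin subunit NCAPH 65.6 and 44.5 CPM against 16.0 and 14.1 CPM. Both 7.5 µM libraries exceeded both 0.7 µM libraries in all 5 genes. These were named as stable genes, and 346 of the 348 stable genes did not overlap between doses, against 36.4% of all tested genes. The lack of overlap is therefore no separate support. Log2 fold changes were 2.08 ± 0.26 for BUB1B, 1.71 ± 0.24 for MKI67, 1.90 ± 0.27 for ASPM, 1.96 ± 0.30 for CASC5 and 1.84 ± 0.27 for NCAPH, with adjusted p between 0.00157 and 0.00439. BUB1B ranged from 1.75 to 2.27 and MKI67 from 1.61 to 1.82 as each library was left out.

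DNA replication genes moved the same way by less. Of 40, 13 were called higher and 0 lower, with a median of 0.75; the sums were 4931 and 3142 CPM at 7.5 µM against 3081 and 2037 CPM at 0.7 µM. None was stable, and in leave-out order 15, 18, 1 and 3 were higher. CLSPN, a checkpoint adaptor at the fork, had 45.6 and 43.3 CPM at 7.5 µM against 8.74 and 19.5 CPM at 0.7 µM and lost its call without 0.7 µM replicate 1. Nucleotide synthesis had 5 of 24 higher and 1 lower, and in leave-out order 9, 10, 1 and 1 were higher. In homologous recombination and crosslink repair, 8 of 26 were higher and 0 lower, of which XRCC2 was stable at 25.6 and 32.0 CPM against 7.19 and 8.92 CPM (6, 14, 1 and 3 higher in leave-out order).

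G1 regulators and MYC genes moved both ways. Cyclin E2 (CCNE2), which drives S phase entry, had 22.4 and 15.5 CPM at 7.5 µM against 2.82 and 2.97 CPM at 0.7 µM, a log2 fold change of 2.71 ± 0.35; 37% of its exonic length overlaps INTS8 on the other strand. CDKN1C, the inhibitor p57, was lower at 23.3 and 40.4 CPM against 112 and 135 CPM (-1.97 ± 0.33). In the list of 28, 7 were higher and 3 lower, and the lower ones were CDKN1C and the cyclins CCND2 and CCND3; CCND3 lost its call without 0.7 µM replicate 2 and CCND2 without either 0.7 µM library. In leave-out order 7, 10, 2 and 2 were higher and 4, 3, 2 and 1 lower. Of 14 replication-dependent histones 0 were higher and 3 lower (2, 3, 2 and 1 in leave-out order), although their median was 0.22; the linker histone HIST1H1E was stable at 1.62 and 0.425 CPM against 7.82 and 3.32 CPM. Most histone messages lack a poly(A) tail, and the library kit is not stated in the sources used here.

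**Figure D3:**
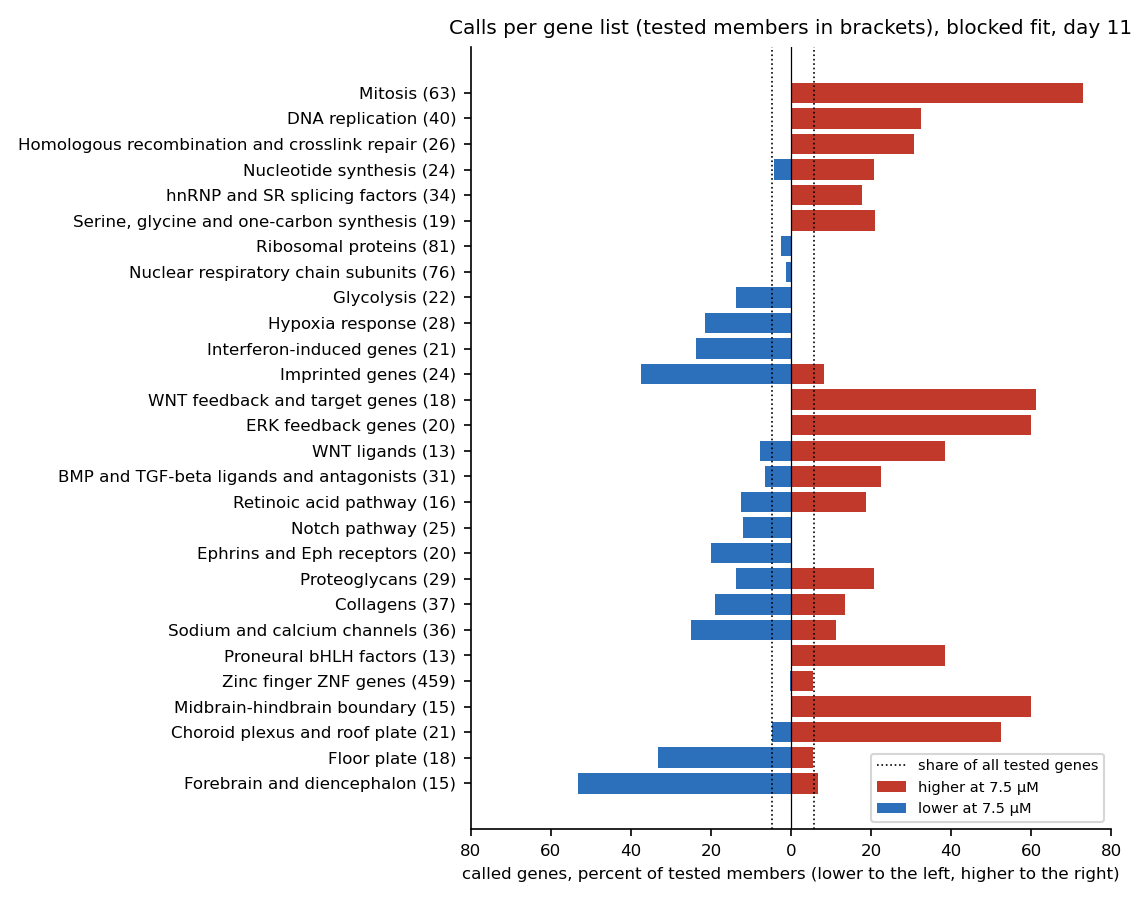
Share of tested members called higher (red, right) and lower (blue, left) at 7.5 µM in 28 gene lists, in percent, with the number tested in brackets and dotted lines at the shares of all genes, 5.64% and 4.87%. Mitosis reaches 73.0% on the right with none on the left, and forebrain and diencephalon genes 53.3% on the left.

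The promoters of the mitosis genes share short sequence elements. In cycling cells most G2 and M genes carry a cell cycle genes homology region (CHR, searched as TTTGAA), bound by the DREAM and MuvB complexes, beside CCAAT boxes bound by NF-Y, whereas S phase genes tend to carry E2F sites (searched as GGCGGGAA). Both strands were searched from 250 bases before to 50 after each start in RefSeq promoters of GRCh38.p14, which matched 12482 of the 18709 tested genes. CHR letters were in 36 of 53 matched mitosis promoters (67.9%), in 0 of 33 DNA replication promoters, in 20.0% of those of genes called higher, in 7.13% of genes called lower and in 10.1% of all tested genes. CCAAT was in 73.6% of the mitosis promoters and 60.6% of the DNA replication promoters, against 36.0% of all tested genes. E2F letters were in 27.3% of the DNA replication promoters and 34.8% of the repair promoters, but in 3.77% of the mitosis promoters, against 4.84% of all tested genes. The stable mitosis genes NCAPH and SGOL2 held CCAAT but no CHR letters. These are matches of letters and not shown sites, and the mitosis list was picked for function and not for its promoters.

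**Figure D4:**
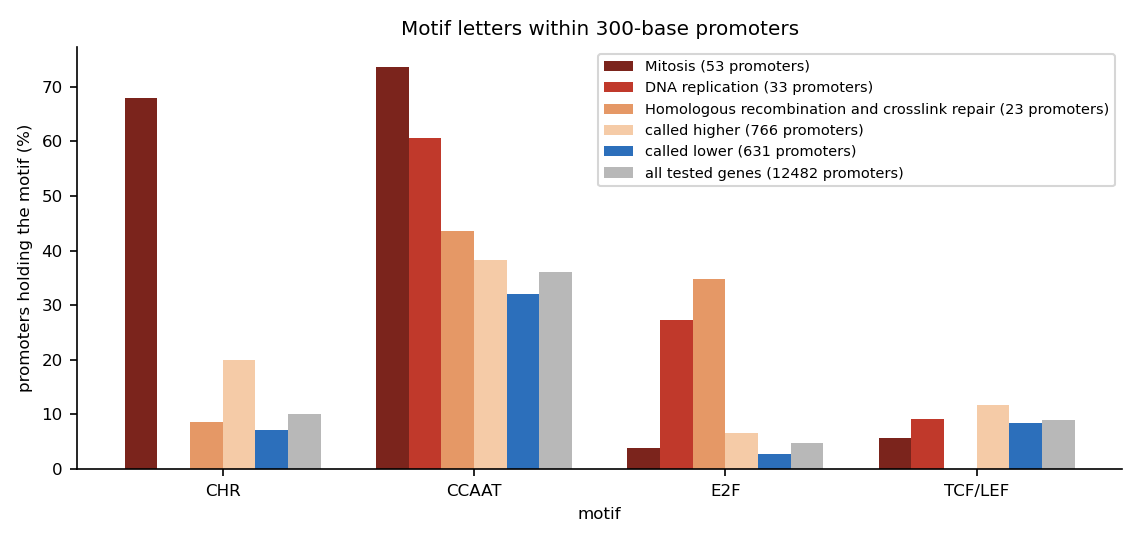
Percent of matched promoters that hold each motif on either strand, for 3 gene lists, the genes called higher and lower at 7.5 µM, and all tested genes; the number of promoters is in the legend. The CHR bar of the mitosis list stands at 67.9% beside 10.1% for all tested genes, and the E2F bars are highest for replication and repair.

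The promoters of 3 stable mitosis genes are shown as examples of CHR letters alone (BUB1B) or beside CCAAT letters (ASPM and MKI67), with the matches of either strand in capitals; in MKI67 the letters overlap. BUB1B lies on chromosome 15 (chr15:40160819-40161118, plus strand), ASPM on chromosome 1 (chr1:197146620-197146919, minus strand) and MKI67 on chromosome 10 (chr10:128126374-128126673, minus strand), all in GRCh38.p14.
BUB1B: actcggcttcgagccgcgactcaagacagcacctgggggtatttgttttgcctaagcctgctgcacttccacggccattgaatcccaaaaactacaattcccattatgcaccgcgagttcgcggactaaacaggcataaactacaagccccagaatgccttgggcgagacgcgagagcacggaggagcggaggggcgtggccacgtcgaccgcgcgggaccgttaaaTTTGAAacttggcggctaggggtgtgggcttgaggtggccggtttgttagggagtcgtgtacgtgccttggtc
ASPM: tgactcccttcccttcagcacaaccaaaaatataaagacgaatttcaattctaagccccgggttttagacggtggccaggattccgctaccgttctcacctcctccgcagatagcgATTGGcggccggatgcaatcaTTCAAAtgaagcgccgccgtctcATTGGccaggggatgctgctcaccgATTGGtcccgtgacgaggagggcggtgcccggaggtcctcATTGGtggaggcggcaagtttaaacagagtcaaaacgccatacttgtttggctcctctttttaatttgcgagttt
MKI67: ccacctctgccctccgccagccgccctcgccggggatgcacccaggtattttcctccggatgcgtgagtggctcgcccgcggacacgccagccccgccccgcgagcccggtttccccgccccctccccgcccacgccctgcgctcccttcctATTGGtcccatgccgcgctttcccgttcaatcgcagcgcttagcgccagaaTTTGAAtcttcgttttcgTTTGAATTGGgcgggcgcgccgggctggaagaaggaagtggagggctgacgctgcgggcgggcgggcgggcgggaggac

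SP5 and DKK1, stable WNT target genes, are shown because their promoters hold the TCF/LEF letters CTTTGA, in capitals, as did 3 of 10 matched promoters of that list. SP5 (chr2:170715087-170715386, plus strand) holds 3 and DKK1 (chr10:52314031-52314330, plus strand) holds 2. The promoters of APCDD1 and LEF1, also stable members of that list, hold none. The letters were in 11.7% of promoters of genes called higher, 8.4% of those called lower and 8.97% of all tested genes. Of the 10 matched promoters of the WNT list, 4 held CHR letters and 5 held CCAAT, so TCF/LEF letters were not the most frequent there. CTTTGAA would be counted for both TCF/LEF and CHR.
SP5: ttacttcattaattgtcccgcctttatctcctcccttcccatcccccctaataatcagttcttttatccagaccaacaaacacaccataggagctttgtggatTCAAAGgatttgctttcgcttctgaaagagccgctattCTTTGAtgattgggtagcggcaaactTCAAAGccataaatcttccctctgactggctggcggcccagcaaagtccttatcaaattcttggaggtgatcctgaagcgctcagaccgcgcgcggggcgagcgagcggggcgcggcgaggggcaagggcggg
DKK1: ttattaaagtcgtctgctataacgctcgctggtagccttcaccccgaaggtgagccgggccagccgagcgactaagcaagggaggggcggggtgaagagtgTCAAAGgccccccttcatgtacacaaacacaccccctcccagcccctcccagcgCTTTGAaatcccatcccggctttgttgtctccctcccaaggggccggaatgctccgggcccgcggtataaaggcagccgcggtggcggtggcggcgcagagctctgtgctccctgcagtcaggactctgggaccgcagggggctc
DKK1, a secreted WNT inhibitor, had 145 and 311 CPM at 7.5 µM against 1.75 and 20.7 CPM at 0.7 µM, a log2 fold change of 4.79 ± 0.56 that was 3.93 without 0.7 µM replicate 1 and 6.35 without 0.7 µM replicate 2.

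Ribosomal protein genes were lower at 7.5 µM in both pairs, but few passed. Their 81 tested members summed to 63380 and 41730 CPM at 7.5 µM against 152400 and 67370 CPM at 0.7 µM, with a median log2 fold change of -0.90, and pair medians of -1.24 and -0.65. Only 2, RPL9 and RPL17, were called, both lower, 2.47% against the 4.87% of all genes, and none was called when 7.5 µM replicate 1 or either 0.7 µM library was left out. Without 7.5 µM replicate 2, 75 were lower, and DESeq2 with the same block called 60 lower. RPL9 had 152 and 120 CPM at 7.5 µM against 516 and 248 CPM at 0.7 µM (log2 fold change -1.34 ± 0.35, and -2.07 without 7.5 µM replicate 2). At 3 and 5 µM the sums were 251900 and 206400 CPM in replicate 1 and 75780 and 65100 CPM in replicate 2, and the 3 replicate 1 libraries other than that of 7.5 µM held the highest sums. Ribosomal protein genes have many processed pseudogenes, which could share their reads.

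Short genes and gene-rich chromosomes moved with this replicate 1 pattern. In the pair of replicate 1 libraries the median log2 ratio of protein-coding genes was -0.46 in the fifth of shortest exonic length and 0.44 in the fifth of longest, while in the replicate 2 pair it was 0.11 and -0.10. On chromosome 19 the medians of the pairs were -0.48 and 0.02, and on chromosome 18 they were 0.52 and 0.06. Their part in the ribosomal and mitochondrial values was not tested. Nuclear genes of the respiratory chain, mostly short, had 0 of 76 higher and 1 lower, and pair medians of -0.72 and -0.10. NDUFS7, a complex I subunit on chromosome 19, had 16.7 and 9.97 CPM at 7.5 µM against 53.9 and 17.8 CPM at 0.7 µM and lost its call without 0.7 µM replicate 1; 36% of its exonic length overlaps a gene on the other strand. Without 7.5 µM replicate 2, 46 of the 76 were called lower. Of 74 mitochondrial ribosome genes none was called (22 lower without 7.5 µM replicate 2, and 2 lower in DESeq2); MRPS27 had 117 and 104 CPM against 112 and 89.0 CPM. Proteasome subunits had no call among 35 either, and their median was 0.08; 2 were higher without 7.5 µM replicate 1, and 2 higher and 5 lower without 7.5 µM replicate 2.

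Glycolysis genes had medians of -0.72 and -0.61 in the replicate pairs. The 22 genes summed to 11590 and 12330 CPM at 7.5 µM against 19300 and 19570 CPM at 0.7 µM, and the doses did not overlap; 0 were called higher and 3 lower. ENO2, the neuronal enolase, had 79.8 and 172 CPM at 7.5 µM against 154 and 632 CPM at 0.7 µM (-1.45 ± 0.30) and lost its call without 0.7 µM replicate 2. PFKFB4, which sets the level of an activator of phosphofructokinase, had 45.4 and 132 CPM against 124 and 337 CPM and lost it in every fit but that without 7.5 µM replicate 2. Both genes overlapped between the doses and were lower within each pair. In leave-out order 3, 12, 1 and 0 genes were lower and 0, 2, 0 and 2 higher, so without 0.7 µM replicate 2 the calls were on the higher side.

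Hypoxia genes, targets of HIF1, had 0 of 28 higher and 6 lower, 21.4%. Their sum was 914.6 and 1946 CPM at 7.5 µM against 851.4 and 4654 CPM at 0.7 µM, so the sum was lower in the replicate 2 pair alone; pair medians were 0.05 and -1.28. The 3 stable members were lower in both pairs. EGLN3, an oxygen sensor, had 1.44 and 8.08 CPM at 7.5 µM against 10.1 and 41.5 CPM at 0.7 µM (-2.58 ± 0.32), and P4HA2, a collagen prolyl hydroxylase, 22.6 and 34.9 CPM against 69.1 and 200 CPM (-2.12 ± 0.32, and -1.52 without 0.7 µM replicate 2). ANKRD37 had 1.81 and 7.63 CPM against 5.34 and 20.9 CPM, and 35% of its exonic length overlaps UFSP2 on the other strand. EGLN3 and P4HA2 did not overlap between the doses, while ANKRD37 was separated only within pairs. In leave-out order 10, 5, 7 and 4 members were lower.

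**Figure D5:**
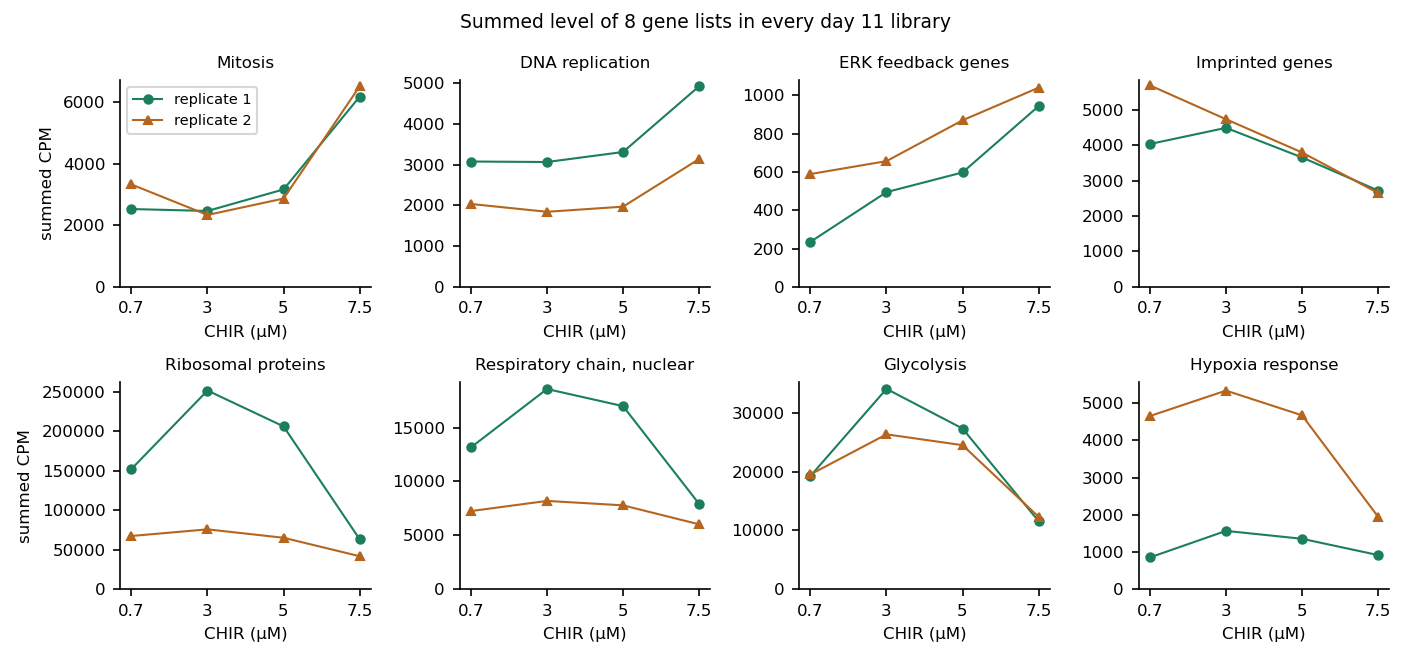
Summed CPM of 8 gene lists in every day 11 library, against CHIR concentration in µM; circles are replicate 1 and triangles replicate 2. Mitosis stays between 2335 and 3325 CPM up to 5 µM and reaches 6175 and 6510 CPM in the 7.5 µM libraries, while the hypoxia sum is 914.6 and 1946 CPM at 7.5 µM and 851.4 and 4654 CPM at 0.7 µM.

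Some genes of amino acid supply rose. PSAT1, of serine synthesis, had 698 and 253 CPM at 7.5 µM against 114 and 107 CPM at 0.7 µM (1.99 ± 0.37, not called without 0.7 µM replicate 1, and 1.23 without 7.5 µM replicate 1). SLC7A5, a leucine transporter and target of the amino acid response, had 203 and 41.2 CPM against 33.7 and 5.62 CPM, with a log2 fold change of 2.68 ± 0.57. That was 3.64 without 0.7 µM replicate 1 and no longer called without 7.5 µM replicate 1 (1.89) or 0.7 µM replicate 2 (2.09). TRIB3, of the same response, had 43.4 and 5.58 CPM at 7.5 µM against 7.62 and 2.23 CPM at 0.7 µM, overlapped between doses and lost its call in every fit but that without 7.5 µM replicate 2. Serine, glycine and one-carbon synthesis had 4 of 19 higher and 0 lower, and the unfolded protein and amino acid response 4 of 26 and 0. Pair medians were 1.05 and 0.17 in the first list and 0.36 and 0.01 in the second, so the higher level lay mainly in the replicate 1 pair. In leave-out order the first list had 4, 10, 0 and 1 higher and the second 0, 8, 2 and 0. Of 34 hnRNP and SR splicing factors 6 were higher and 0 lower (5, 10, 0 and 0 higher in leave-out order), with 31 of 34 above 0 and a median of 0.49; SRSF3 had 642 and 370 CPM at 7.5 µM against 302 and 152 CPM at 0.7 µM.

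Feedback genes of the FGF and ERK pathway rose in 12 of 20 cases (60.0%) and fell in 0. The fold change was positive in 16, the pair medians were 2.05 and 0.68, and the sums were 943.7 and 1040 CPM at 7.5 µM against 235.0 and 589.1 CPM at 0.7 µM. SPRY1, an inhibitor of receptor tyrosine kinase signalling, had 37.4 and 60.9 CPM at 7.5 µM against 2.04 and 16.2 CPM at 0.7 µM, a log2 fold change of 2.89 ± 0.47 that was 2.21 when 7.5 µM replicate 1 was left out, and 2.16 and 3.97 when 0.7 µM replicates 1 and 2 were. It was the one stable member: in leave-out order 8, 12, 1 and 10 members were higher. The ligand FGF17, of the midbrain-hindbrain boundary, had 45.6 and 7.90 CPM at 7.5 µM against 0.728 and 0.369 CPM at 0.7 µM, while the receptor FGFR3 was lower as given above and FGF11, 75% of whose exonic length is shared with another entry, had 16.3 and 27.5 CPM against 55.2 and 78.0 CPM.

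Hedgehog pathway genes moved both ways. GLI3, a factor that is mostly a repressor of Hedgehog targets, had 114 and 107 CPM at 7.5 µM against 16.5 and 19.5 CPM at 0.7 µM (2.65 ± 0.32), and DISP1, which releases the ligand from cells, had 40.3 and 66.7 CPM against 14.4 and 13 CPM (1.95 ± 0.30). SCUBE1, a secreted partner of the ligand, was lower at 0.984 and 0.745 CPM against 9.76 and 7.94 CPM (-3.35 ± 0.48). In all, 4 of 20 members were higher (GLI1, GLI2, GLI3 and DISP1) and 4 lower (SHH, HHIP, BOC and SCUBE1). SHH itself had 19.9 and 27.4 CPM at 7.5 µM against 278 and 51.2 CPM at 0.7 µM, and its call was lost without 7.5 µM replicate 1 or 0.7 µM replicate 1. In leave-out order 4, 5, 2 and 3 members were higher and 4, 6, 1 and 3 lower.

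Other signalling lists held members moving each way. WNT ligands had 5 of 13 higher and 1 lower; WNT4 had 41.9 and 28.2 CPM at 7.5 µM against 5.83 and 3.6 CPM at 0.7 µM, and in leave-out order 4, 6, 4 and 3 ligands were higher. BMP and TGF-beta ligands and antagonists had 7 of 31 higher and 2 lower (5, 8, 2 and 3 higher and 3, 4, 1 and 1 lower in leave-out order); the ligand BMP6 had 18.4 and 22.4 CPM against 0 and 2.17 CPM. CRABP1, which binds retinoic acid in the cytoplasm, had 164 and 169 CPM at 7.5 µM against 1620 and 822 CPM at 0.7 µM, a log2 fold change of -2.74 ± 0.35 that was -3.40 without 7.5 µM replicate 2; 47% of its exonic length overlaps a gene on the other strand. IGFBP2, which binds insulin-like growth factors, had 278 and 178 CPM against 968 and 515 CPM (-1.67 ± 0.27). Notch pathway genes had 0 of 25 higher and 3 lower (1, 3, 0 and 1 higher and 7, 4, 2 and 3 lower in leave-out order), with DLK1 and the glycosyltransferase MFNG stable; MFNG had 9.97 and 10.7 CPM at 7.5 µM against 43.3 and 51.6 CPM at 0.7 µM.

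Imprinted genes are expressed from 1 parental copy, and many act in fetal growth. Of 24 tested, 2 were called higher and 9 lower (37.5% against 4.87%), 5 of them stable, with a median of -0.46; 6 to 9 were lower with any 1 library left out. DLK1 had 9.20 and 19.9 CPM at 7.5 µM against 118 and 417 CPM at 0.7 µM (-4.04 ± 0.30, adjusted p 0.000277). H19, a long noncoding RNA, had 5.88 and 13.1 CPM against 43.8 and 105 CPM (-2.95 ± 0.31), and MEST, a hydrolase-like protein, 220 and 255 CPM against 819 and 1300 CPM (-2.13 ± 0.27). NNAT had 96.7 and 68.2 CPM against 353 and 226 CPM (-1.80 ± 0.26) and CDKN1C is given above. DLK1, H19, MEST, NNAT and CDKN1C lie on chromosomes 14, 11, 7, 20 and 11. None overlapped between the doses, which held for 346 of the 348 stable genes and is no separate support. The higher ones were GRB10 and PLAGL1, both lost without 0.7 µM replicate 1, and GRB10 also without 0.7 µM replicate 2. At 5 µM, MEST had 425 and 535 CPM and at 3 µM 817 and 841 CPM. At 3 µM H19 had 119 and 140 CPM and CDKN1C 262 and 173 CPM, above 0.7 µM in each pair. DLK1 had 164 and 377 CPM there and NNAT 384 and 170 CPM, above 0.7 µM in replicate 1 alone. A stepwise fall with dose was thus not shared by all 5 genes. Interferon-induced genes had 0 of 21 higher and 5 lower, none stable (3, 7, 1 and 2 in leave-out order); BST2, a tether of budding viruses, had 29.5 and 42.0 CPM at 7.5 µM against 230 and 115 CPM at 0.7 µM and lost its call without either 0.7 µM library.

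Matrix and adhesion genes moved both ways. Among 29 proteoglycans 6 were higher and 4 lower (6, 7, 3 and 4 higher and 7, 8, 2 and 3 lower in leave-out order): SPOCK1 had 90.9 and 126 CPM at 7.5 µM against 5.15 and 8.64 CPM at 0.7 µM (4.03 ± 0.31), while the glypican GPC3 had 22.9 and 14.4 CPM against 216 and 72.8 CPM (-2.80 ± 0.29) and the syndecan SDC4 30.4 and 43.1 CPM against 87.0 and 174 CPM (-1.76 ± 0.25). Collagens had 5 of 37 higher and 7 lower; the stable members COL21A1 and COL13A1 were lower, at 2.10 and 5.66 CPM against 32.7 and 38.8 CPM and at 6.97 and 12.5 CPM against 44.3 and 47.1 CPM. In leave-out order 3, 8, 1 and 1 collagens were higher and 6, 10, 2 and 9 lower. EGFLAM, the matrix protein pikachurin, had 13.9 and 30.2 CPM at 7.5 µM against 0 and 0.694 CPM at 0.7 µM. The integrin subunit ITGA2 had 0.399 and 1.41 CPM against 4.37 and 20.5 CPM.

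Axon guidance and channel genes had calls on both sides. Of potassium channels 13.6% were called higher and 15.3% lower, against 5.64% and 4.87% of all genes. Ephrins and Eph receptors had 0 of 20 higher and 4 lower (5, 7, 4 and 2 in leave-out order), with EPHA7 stable at 8.72 and 33.7 CPM against 35.6 and 98.9 CPM, close but not overlapping between doses. Semaphorins and plexins had 4 of 31 higher and 6 lower (3, 4, 0 and 3 higher and 6, 8, 1 and 3 lower in leave-out order), with SEMA6C stable at 13.5 and 19.9 CPM against 44.4 and 109 CPM. Netrins, Slits and their receptors had 1 of 21 higher and 4 lower (1, 5, 1 and 0 higher and 3, 6, 1 and 2 lower in leave-out order), and potassium channels 8 of 59 higher and 9 lower (7, 11, 4 and 1 higher and 7, 9, 3 and 4 lower). Sodium and calcium channels had 4 of 36 higher and 9 lower (3, 4, 2 and 1 higher and 10, 9, 4 and 6 lower in leave-out order), and 4 stable members, each of them lower; CACNG7, an auxiliary subunit that traffics glutamate receptors, had 10.6 and 5.90 CPM against 44.4 and 28.1 CPM. The median of that list was -0.09 and turned positive, 0.11, when libraries were scaled by totals, with 5 higher and 5 lower; potassium channels then had 9 higher and 6 lower. CNTN2, an axonal adhesion protein, was higher at 102 and 97.5 CPM against 2.09 and 8.96 CPM (4.61 ± 0.63, with 3.46 and 5.4 when 7.5 µM replicates 1 and 2 were left out), as was the potassium channel KCNQ5 at 28.4 and 31.3 CPM against 0.340 and 1.06 CPM. ADRA2C, an adrenergic receptor, had 62.9 and 35.3 CPM at 7.5 µM against 5.88 and 2.26 CPM at 0.7 µM, and the serotonin receptor HTR2C had 0.771 and 1.57 CPM against 10.8 and 31.0 CPM.

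Among 459 tested ZNF zinc finger genes 25 were higher and 1 lower, 5.45% against 5.64% of all genes on the higher side and 0.218% against 4.87% on the lower; the median was 0.27 and 312 were above 0. In leave-out order 22, 88, 6 and 5 were higher and 10, 22, 2 and 2 lower. ZNF503, a repressor of the early nervous system, had 118 and 88.0 CPM at 7.5 µM against 23.6 and 19 CPM at 0.7 µM (2.26 ± 0.25). The nuclear receptor NR2F2 had 112 and 118 CPM against 37.6 and 34.9 CPM (1.66 ± 0.25), in a list with 1 of 34 higher and 1 lower (1, 2, 1 and 1 higher and 4, 4, 0 and 1 lower in leave-out order). ID4, an inhibitor of bHLH factors, was lower at 15.6 and 12.5 CPM against 54.5 and 46.4 CPM (-1.85 ± 0.25), while 4 of the 19 genes of its list, ID and SMAD targets, were higher (3, 5, 0 and 0 in leave-out order). LIN28 and related heterochronic genes had no call among 14 (6 higher and 1 lower without 7.5 µM replicate 2, and 1 lower without 7.5 µM replicate 1); LIN28A had 1320 and 1130 CPM at 7.5 µM against 1100 and 1730 CPM at 0.7 µM.

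Marker lists of regions and cell types follow. Forebrain and diencephalon genes had 1 of 15 higher and 8 lower, and floor plate genes 1 of 18 and 6. Choroid plexus and roof plate genes had 11 of 21 and 1, and midbrain-hindbrain boundary genes 9 of 15 and 0. The 11 were ZIC1, ZIC4, ZIC5, PAX3, PAX7, OTX2, MSX1, RSPO1, RSPO3, BMP6 and WNT3A. None of the choroid plexus genes TTR, AQP1, CLIC6 and FOLR1 was called, with log2 fold changes of -1.86, -0.4, 0.01 and 1.69. In leave-out order 7, 6, 3 and 5 forebrain and 3, 9, 2 and 5 floor plate genes were lower, and 12, 10, 6 and 7 choroid plexus and roof plate genes were higher. Floor plate genes summed to 1082 and 1226 CPM at 7.5 µM against 2492 and 1703 CPM at 0.7 µM. Of the boundary genes, PAX5 had 64.6 and 22.7 CPM at 7.5 µM against 0.777 and 2.80 CPM at 0.7 µM. RSPO1, a WNT-enhancing ligand of the roof plate, had 8.51 and 9.23 CPM against 0.291 and 0.217 CPM. Some lists were meant for cells outside the neural tube, but a sum does not measure how many such cells there were. Mesoderm and caudal epiblast genes summed to 148 and 126.8 CPM at 7.5 µM against 58.9 and 138.9 CPM at 0.7 µM. Most of the 7.5 µM sum was DLL1 (56.6 and 33.0 CPM) and LFNG (43.9 and 52.8 CPM). Endoderm genes summed to 249.7 and 174.1 CPM against 225.1 and 161.6 CPM. Most of the 7.5 µM sum was CXCR4 (183 and 105 CPM) and FOXA1 (55.7 and 56.9 CPM), and FOXA1 is also in the floor plate list. Neural crest genes summed to 223.7 and 180.2 CPM against 391.5 and 452.6 CPM. Endothelium summed to 10.72 and 16.80 CPM at 7.5 µM against 23.16 and 45.02 CPM at 0.7 µM, blood and microglia to 2.208 and 1.595 CPM against 3.593 and 1.584 CPM, and muscle to 23.06 and 27.31 CPM against 40.30 and 20.59 CPM. Mesenchyme and pericyte genes summed to 647.1 and 674.9 CPM against 256.9 and 532.0 CPM, with 3 of 17 higher and 1 lower (4, 4, 1 and 1 higher in leave-out order); COL1A1 had 25.1 and 36.4 CPM against 3.35 and 21.1 CPM and lost its call without either 0.7 µM library. Most of the 7.5 µM mesenchyme and pericyte sum was FN1 and COL1A2, neither of them called. FN1 had 366 and 208 CPM at 7.5 µM against 80.9 and 179 CPM at 0.7 µM. COL1A2 had 31.3 and 217 CPM against 36.5 and 221 CPM. The part of cells outside the neural tube in the matrix values was not tested.

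By gene type, 7.58% of 1861 long noncoding genes, 3.03% of 1949 pseudogenes and 12% of 14367 protein-coding genes were called. Of antisense RNAs named by symbol, 19 of 256 were higher (7.42%) and 6 lower (2.34%), against 5.64% and 4.87% of all genes (13, 21, 5 and 3 higher and 5, 28, 1 and 1 lower in leave-out order); FZD10-AS1 was stable, with 16.9 and 16.8 CPM at 7.5 µM against 1.85 and 1.13 CPM at 0.7 µM. AC141928.1 had 73.4 and 75.5 CPM against 1.07 and 1.93 CPM. By chromosome, the median log2 fold change of protein-coding genes ran from -0.25 on chromosome 19, where 15 were higher and 95 lower, to 0.35 on chromosome 18, where 21 were higher and 5 lower.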

How the data were processed

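Per the labels, total RNA was extracted with TRIzol and a Direct-zol kit; neither library kit, strandedness nor counting options is given in the sources used here. The authors deposited read counts per gene for each library, and DESeq2 1.12.4, HTSeq 0.5.3, featureCounts 1.4.2, STAR 2.4.2a and the build hg19 are listed, per the submitters' processing notes. The 5 summary rows, 37.41% to 44.27% of all counts, entered neither library sizes nor tests.

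The 57445 gene rows of the 8 day 11 libraries were tested with edgeR 4.0.16 (R 4.3.3) by TMM scaling, filterByExpr, robust quasi-likelihood fits with dose and replicate number, and F-tests with Benjamini-Hochberg adjustment over all 18709 genes at 0.05. CPM are TMM-scaled, pair ratios use a prior count of 2, and SE is that of the fitted log2 fold change. With a block, 3 residual degrees of freedom remain. The replicate numbers were taken to pair the libraries because the sample descriptions start with 1 code in all replicate 1 libraries of day 11 and another in all replicate 2 libraries, and same-numbered deviations from the group means correlated at 0.657 to 0.871 over the 6 pairs of doses. These deviations had an SD of 0.383 at the highest dose and of 0.622 to 0.725 at the other doses, so the replicate difference was not equal across doses. A run on simulated counts was also made, but no result of it is given here. Simulated counts cannot show whether the block on replicate number suits these libraries, so that run is no support for the calls.

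Named genes are stable genes: the 15 higher and 15 lower of largest fold change, the 10 and 10 of largest CPM difference, up to 4 per list (each at 5 CPM or more, except for the CPM difference), 4 fixed markers and, in lists with no stable member, up to 2 called or abundant ones. Lists are also given as whole sets of called members, and the markers SOX2, VIM and FOXA2, and SHH, were chosen after their values were seen. Some genes that this rule picks are not reported here. Members and lists were chosen with earlier results of these data known. The 99 lists got no set test. Gene type, chromosome, length and overlap came from GENCODE 29 by identifier, which had 18206 of the tested genes. Promoters came from RefSeq (GRCh38.p14). Bounds and intervals cover counting error only. Alternatives were other scalings, no low-count filter, no block, the 4 compared libraries alone, DESeq2 1.42.0, and leaving out each compared library; medians by replicate pair and by length were added after seeing the data.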

Additional observations from a re-analysis of the deposited data

How the results depend on the processing

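The block decides whether any gene passes. Against 1967 called genes (1056 higher, 911 lower), the fit with no replicate block called 0 (0 higher, 0 lower; 1641 at an unadjusted p under 0.05), and DESeq2 with the block called 2981 (1385 higher, 1596 lower; 5249 unadjusted). No low-count filter gave 3391 (1787 higher, 1604 lower) of 31799 genes, and the 4 compared libraries alone gave 1032 (550 higher, 482 lower) with 1 residual degree of freedom. Library totals without TMM gave 594 lower genes. Leaving out 1 library gave 672 to 5602 called genes, 326 to 2933 higher and 346 to 2669 lower, fewest without 0.7 µM replicate 1 and most without 7.5 µM replicate 2; a fit without a library has 2 residual degrees of freedom and assumes that the lone sample varies like the other doses. Of the 177 called genes named by the rule, none changed sign under any of these alternatives; 176 stayed called with DESeq2 size factors, 171 with library totals, 177 with no filter, 177 in DESeq2 and 143 with 4 libraries. Without 7.5 µM replicates 1 and 2, 156 and 176 stayed called, and without 0.7 µM replicates 1 and 2, 128 and 130. Of the 177 genes, 117 are stable and so stay called with 1 sign in all 4 of these fits by definition. With 2 libraries a dose, small changes cannot be told from the spread between libraries.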

Other observations

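Of the 99 gene lists, 92 held at least 1 called member. Among the lists with none, the metallothionein MT1X had 3.51 and 2.26 CPM at 7.5 µM against 5.78 and 5.51 CPM at 0.7 µM, and the muscle myosin MYH3 had 7.71 and 3.40 CPM against 8.25 and 2.45 CPM. Primary cilium transport genes, 30 in all, also had no call (7 higher and 5 lower without 7.5 µM replicate 2, 1 higher without 7.5 µM replicate 1, and 2 higher in DESeq2); CEP290, of the ciliary transition zone, had 68.9 and 153 CPM at 7.5 µM against 47.0 and 243 CPM at 0.7 µM. The replicate pairs went opposite ways in motile cilia genes, with medians of -0.91 and 0.34, and 0 of 22 were called higher and 3 lower (1 and 8 lower without 7.5 µM replicates 1 and 2, and 1 and 2 when 0.7 µM replicates 1 and 2 were left out), of which DNAI1, an outer dynein arm chain, had 1.04 and 1.89 CPM at 7.5 µM against 11.9 and 5.03 CPM at 0.7 µM and lost its call without 7.5 µM replicate 1 or 0.7 µM replicate 1.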
